A study of Mus musculus with 90 samples.

Results

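The comparison described here is between uninjured livers of Pdgfra-Cre mice with floxed Piezo1 (FL) and livers of Pdgfra-Cre mice with intact Piezo1 (WT). It rests on 8 of the 90 mouse libraries of the series, 4 FL and 4 WT, taken by the names of their count columns. The study as a whole compared muscle mesenchymal stromal cells and whole tissues of mice with and without exercise, injury or Piezo1 loss. The liver was one of the tissues taken from uninjured, sedentary littermates of both genotypes, and was perfused before collection per the series' design text. The library names carry the day 0 of the cardiotoxin experiments, in which a venom toxin injures skeletal muscle, while the treatment label reads SED (sedentary). Both genotypes carry the Pdgfra-Cre transgene, so a difference between them is not one between mice with and without Cre. The age and sex of the liver donors are not stated in the labels. The labels do not say that the replicates came from separate animals, so p-values measure the spread between these samples, which may be technical.

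PIEZO1 is a cation channel of the cell membrane that opens when the membrane is stretched and lets calcium into the cell. In the liver it is known from endothelial cells, which sense flow, and it is also known from macrophages and red blood cells. PDGFRA, whose promoter drives the Cre recombinase, is made in the liver by hepatic stellate cells, which store vitamin A and can lay down scar matrix, and by portal fibroblasts. These are a minor part of whole liver, most of whose RNA comes from hepatocytes, so a change confined to Pdgfra-expressing cells is diluted in these libraries. In whole tissue, fewer cells of a type and less RNA per cell cannot be told apart.

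Hepatocyte transcripts dominated all 8 libraries. Albumin (Alb) stood at 61784, 64581, 65902 and 75278 CPM in WT 1 to 4 and at 86165, 83278, 89489 and 46204 CPM in FL 1 to 4. Levels are given in CPM, each count divided by its library's TMM-scaled total. The 19 hepatocyte markers together made up 168550 to 185400 CPM in WT and 141790 to 228350 CPM in FL. The libraries held 27461930 to 38376123 counts, and 18986 to 21017 genes had a count. WT 1, WT 2 and FL 1 stood apart on the first principal component, which carried 27.7% of the variance: they scored -47.6, -41.7 and -54.9, and the other 5 libraries 24.4 to 35.9. The same 3 libraries had the largest share of mitochondrial counts, 2.40 to 2.56% against 1.61 to 1.98% in the other 5, and the fewest genes with a count. No label used here separates these 3 libraries from the others. They hold only 1 FL library, so the comparison could be repeated within the other 5 (WT 3, WT 4, FL 2, FL 3 and FL 4) but not within the 3, and the value without the 3 stands beside the main results below and wherever it differs from the full one by over 1.5-fold.

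Piezo1 itself (chromosome 8, 122481698 to 122551329, mm10) was low in whole liver and was not measurably lower in FL. It stood at 1.43, 3.52, 2.57 and 7.11 CPM in WT 1 to 4 and at 0.872, 2.703, 4.87 and 3.51 CPM in FL 1 to 4, from 30 to 219 counts a library. The groups overlapped across most of their range. The log2 fold change, FL minus WT, was -0.29 (95% interval -1.47 to 0.89; edgeR's quasi-likelihood test, Benjamini-Hochberg adjusted p = 0.999). A two-sided exact permutation test over the 8 samples, with 70 assignments, gave p = 0.6857, where the smallest p possible is 0.02857. The sign turned without WT 4 (log2 0.25) or without FL 1 (log2 0.02), and the value was -0.39 without the 3 libraries apart. With the first principal component as covariate it was -0.77 (edgeR, adjusted p = 0.920). These counts cover the whole gene, so transcripts that lack floxed exons may still be counted, and the groups are named by their labels. In heart of uninjured mice Piezo1 measured 21.3 ± 3.58 CPM in WT and 19.9 ± 3.83 CPM in FL (SD, n = 3 each), and the genotype difference in liver minus that in heart was -0.21 (edgeR, adjusted p = 1.00).

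No gene was called in the liver. A gene is called where edgeR's adjusted p is under 0.05; 0 of 14534 genes tested (0%) reached it. At an unadjusted p under 0.05 there were 525 genes (3.61% of those tested), 291 higher in FL (2.00%) and 234 lower (1.61%). The FL and WT libraries did not overlap for 355 genes (2.44%), 164 with all FL libraries above all WT libraries (1.13%) and 191 with all below (1.31%). The median log2 fold change of all genes was 0.01, and 51.1% of genes had a positive value. DESeq2, run as an alternative, called 15 genes (0.103%), 8 higher in FL and 7 lower. These were Hba-a1, Hbb-bs, Hbb-bt, G6pc, Acmsd, Rgs5, Myh10 and Egr1 on the higher side, and Pparg, Olig1, Gpd1, Ces2e, Pyroxd2, Lrrc29 and Slc34a2 on the lower side. The genes described below are therefore given with their values and not as changed genes.

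**Figure D1:**
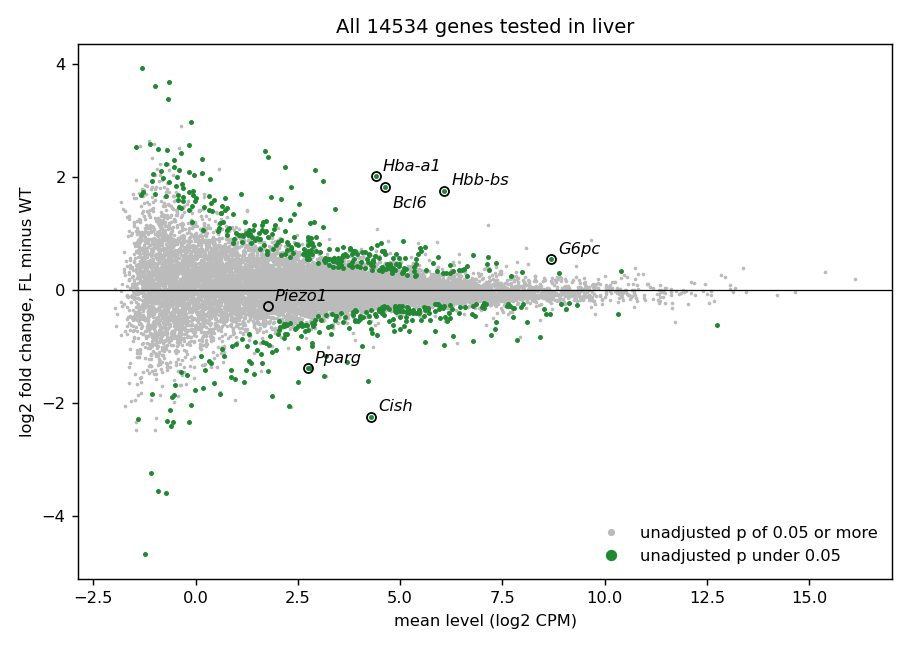
Log2 fold change between FL and WT liver (vertical axis) against the mean level in log2 CPM (horizontal axis), 1 point for each of the 14534 genes tested. The 525 genes with an unadjusted p under 0.05 are green, none passed the adjusted threshold, and Hba-a1, Hbb-bs, Bcl6 and Cish lie far from 0 for their level.

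The precision of the comparison depended on the level of the gene. The 95% interval of a gene's fold change reached a median of 1.29-fold to either side for the 6954 genes with a mean of at least 10 CPM. It reached 1.74-fold for the 5125 genes with a mean of 1 to 10 CPM and 3.16-fold for the 2455 genes below. Piezo1 and Pdgfra belonged to the middle class.

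Globin transcripts, which come from red blood cells and their precursors, gave the 2 smallest p-values. Hba-a1, an alpha-globin gene (chromosome 11, 32283511 to 32284465), stood at 5.30, 10.4, 7.94 and 9.81 CPM in WT 1 to 4 and at 42.7, 29.0, 44.4 and 19.1 CPM in FL 1 to 4. Every FL library was above every WT library. The log2 fold change was 2.02 (95% interval 1.39 to 2.64), with an adjusted p of 0.184 in edgeR and 3.45e-08 in DESeq2. Hba-a1 has a near-identical copy, Hba-a2, so the split of reads between them is uncertain. Hba-a2 was measured at 1.48 to 2.76 CPM in WT and 2.44 to 9.44 CPM in FL.

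The beta-globin gene Hbb-bs (chromosome 7, 103826534 to 103828096) stood at 24.4, 36.8, 25.0 and 37.6 CPM in WT and at 135, 91.3, 137 and 53.7 CPM in FL. Again the groups did not overlap, and FL 4 was the FL library nearest to WT. Its log2 fold change was 1.75 (95% interval 1.16 to 2.34; adjusted p = 0.210 in edgeR and 7.22e-07 in DESeq2). Its neighbour Hbb-bt, the second adult beta-globin gene, stood at 2.15, 3.29, 1.82 and 4.00 CPM in WT and at 16.3, 9.16, 19.2 and 4.14 CPM in FL (log2 2.12, adjusted p = 0.756 in edgeR and 0.00232 in DESeq2). Without FL 4, edgeR called both Hba-a1 (log2 2.21) and Hbb-bs (log2 1.97) at an adjusted p of 0.0173. Without the 3 libraries apart the values were 1.80 for Hba-a1 and 1.59 for Hbb-bs, at adjusted p = 0.571 and 0.760.

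The list of red blood cell genes, globin genes included, was not uniform. Of its 12 genes, 8 passed the filter on low counts and 0 were called. An unadjusted p under 0.05 was found for 5 of the 8, against 3.61% of all genes, and 4 did not overlap between groups, against 2.44% of all genes, each of them higher in FL. The median log2 fold change of the 8 was 1.68, against 0.01 over all genes. Alas2, the erythroid enzyme that starts haem synthesis, stood at 136 to 216 CPM in WT and at 134 to 199 CPM in FL (log2 -0.08). It averaged 167 CPM in WT liver, above Hbb-bs at 30.9 CPM, but 47.3 CPM in WT heart, below Hbb-bs at 459 CPM. Which cells its liver reads came from was not tested. Fech, which completes haem synthesis in all cells, stood at 183 to 221 CPM in WT and 194 to 237 CPM in FL (log2 0.09). The livers were perfused, and the amount of blood left in each was not measured, so its part in the globin values was not tested.

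**Figure D2:**
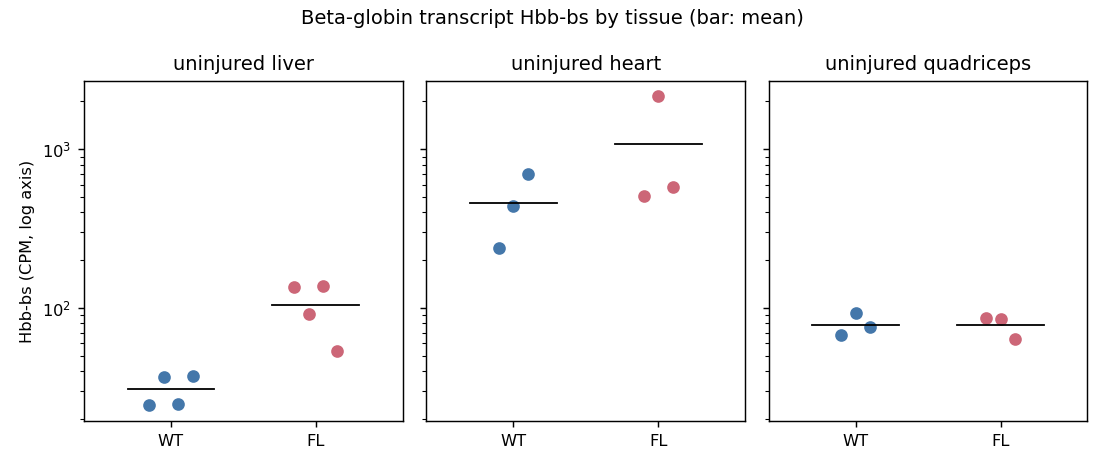
Hbb-bs in CPM on a log axis in single libraries of uninjured liver (4 a group), heart and quadriceps (3 a group), with the mean as a bar. The liver groups do not overlap, while FL and WT overlap in heart and in quadriceps.

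Hearts of uninjured mice, also perfused, had more globin RNA with wide scatter. Hbb-bs stood at 237.5, 436 and 703 CPM in WT heart 2 to 4 and at 506.5, 2150 and 576.5 CPM in FL heart 2 to 4. The heart groups overlapped (log2 1.23, adjusted p = 0.976 in edgeR). In quadriceps Hbb-bs stood at 67.3, 93.0 and 75.9 CPM in WT and at 86.2, 85.5 and 63.6 CPM in FL, a log2 fold change of -0.01. The quadriceps libraries came from another cohort and were shallower, at 6632892 to 7883104 counts each. The genotype difference in liver minus that in quadriceps was 1.75 for Hbb-bs and was not called (adjusted p = 1.00), and the difference minus that in heart was 0.52 (adjusted p = 1.00).

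Among hepatocyte enzymes, G6pc was higher in each FL library and Pklr and Gpd1 were lower, and edgeR called none of the 3. G6pc, the glucose-6-phosphatase that lets the liver release glucose (chromosome 11, 101367561 to 101377903), stood at 333, 358, 351 and 291 CPM in WT and at 510, 492, 455 and 482 CPM in FL. All FL libraries were above all WT libraries, and therefore also among the 3 libraries apart (510 against 333 and 358) and the other 5. With only 1 FL library, the 3 give no separate comparison. The log2 fold change was 0.54 (95% interval 0.31 to 0.77; adjusted p = 0.756 in edgeR and 0.00811 in DESeq2), and 0.56 without the 3 libraries.

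Pklr, the pyruvate kinase of liver and red blood cells and the last step of glycolysis (chromosome 3, 89136142 to 89146784), stood at 81.3, 85.3, 95.6 and 87.8 CPM in WT and at 65.1, 68.1, 58.7 and 54.8 CPM in FL. Its groups did not overlap (log2 -0.50, 95% interval -0.75 to -0.26; adjusted p = 0.935 in edgeR and 0.0834 in DESeq2), and the value was -0.60 without the 3 libraries apart. Gpd1, the cytosolic glycerol-3-phosphate dehydrogenase that links glycolysis to triglyceride synthesis (chromosome 15, 99717515 to 99725005), stood at 443, 460, 495 and 469 CPM in WT and at 368, 339, 353 and 334 CPM in FL. The gap between the groups was wider than the spread within either (log2 -0.42, adjusted p = 0.935 in edgeR and 0.0435 in DESeq2; -0.50 without the 3 libraries apart).

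As lists, both directions of the pathway were mixed. Of the 23 genes of gluconeogenesis and amino acid catabolism, all tested, 0 were called, 13 had a positive and 10 a negative value, and the median log2 fold change was 0.08. The groups did not overlap for 1 gene higher and 1 lower in FL, G6pc and Gpt2, against 2.44% of all genes. Pck1, the enzyme that feeds gluconeogenesis from oxaloacetate, stood at 235, 356, 1345 and 372 CPM in WT and at 605, 1292, 888 and 1450 CPM in FL. WT 3 lay among the FL libraries, and the log2 fold change of 0.88 had a 95% interval of -0.24 to 1.99. The value was 1.72 without WT 3 and 0.49 without the 3 libraries apart. Gpt2, the mitochondrial alanine transaminase, lay lower in every FL library (263 to 362 CPM) than in any WT library (376 to 455 CPM). Of 18 genes of glycolysis and glycogen tested, 5 were positive and 13 negative, with a median of -0.14. The groups did not overlap for 2 of the 18, both lower in FL and Pklr among them, against 2.44% of all genes (1.31% lower). Ppp1r3c, a glycogen-targeting subunit of protein phosphatase 1, went the other way on that list, with 164 to 230 CPM in FL and 114 to 170 CPM in WT (log2 0.47, adjusted p = 0.999). Irs2, an insulin receptor substrate, stood at 4.18, 7.30, 3.54 and 1.66 CPM in WT and at 5.23, 13.2, 10.2 and 9.45 CPM in FL (log2 1.19, adjusted p = 0.999), with a value of 2.07 without the 3 libraries apart. Igfbp1, an insulin-repressed binding protein, stood at 10.9, 36.2, 1.88 and 6.30 CPM in WT and at 20.9, 46.6, 35.1 and 15.0 CPM in FL, overlapping. Its log2 fold change of 1.09 was 2.21 without WT 2 and 2.98 without the 3 libraries apart.

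**Figure D3:**
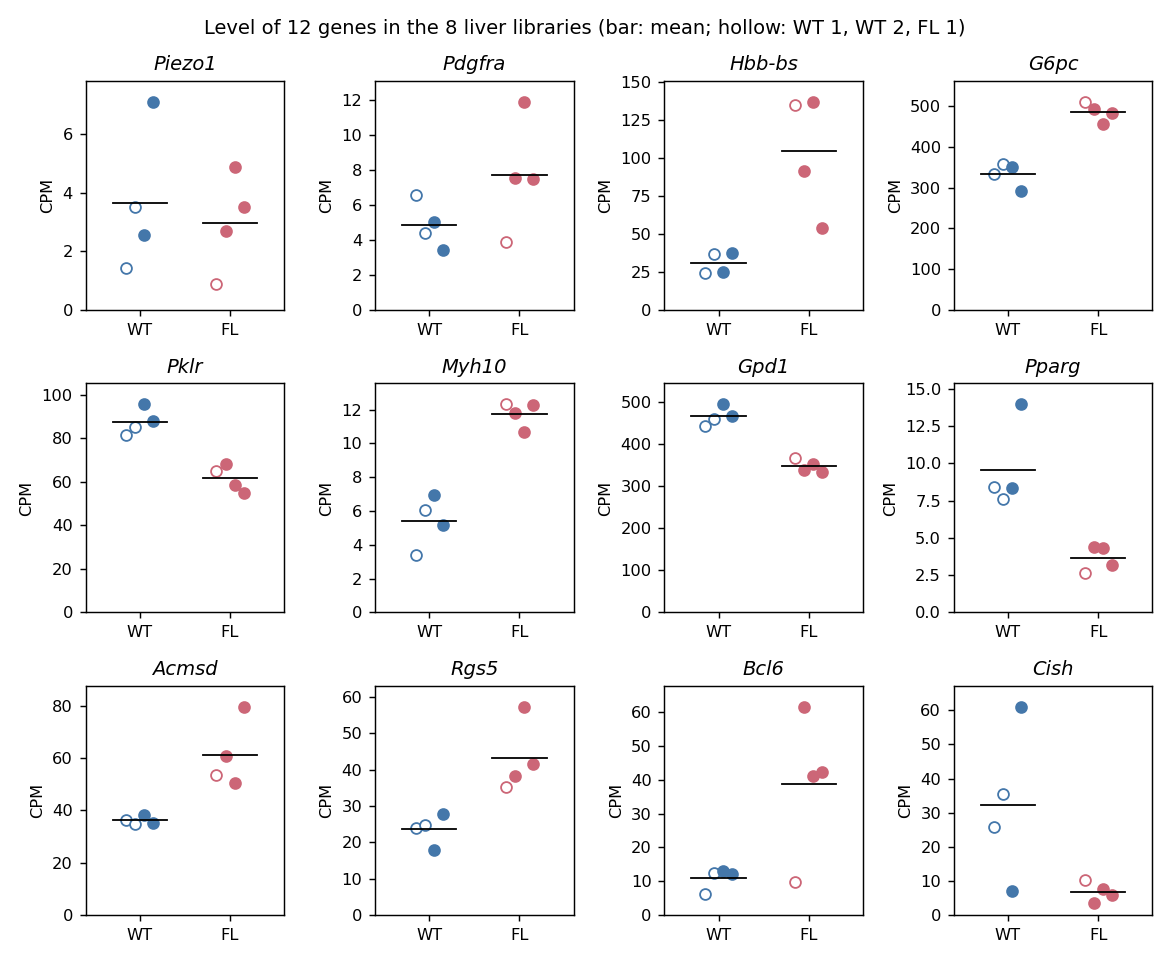
Level of 12 genes in CPM (vertical axes from 0) in the 4 WT and 4 FL liver libraries, 1 point a library and a bar at the mean, with WT 1, WT 2 and FL 1 drawn hollow. G6pc, Acmsd, Rgs5, Myh10 and Hbb-bs are higher in every FL library, Pklr, Gpd1 and Pparg are lower, and Piezo1, Pdgfra, Bcl6 and Cish overlap.

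Lipid genes had more negative than positive values, and none was called. Pparg, the nuclear receptor that drives fat storage and is low in lean liver (chromosome 6, 115360951 to 115490399), stood at 8.42, 7.61, 8.36 and 13.97 CPM in WT and at 2.67, 4.41, 4.35 and 3.21 CPM in FL. The groups did not overlap (log2 -1.39, 95% interval -1.99 to -0.78; adjusted p = 0.756 in edgeR and 0.00523 in DESeq2), and the value was -1.49 without the 3 libraries apart. Cidec, a lipid droplet protein whose gene responds to PPAR gamma, stood at 1.92 to 2.49 CPM in WT and at 0.683 to 1.66 CPM in FL (log2 -1.16, adjusted p = 0.999). Lpl, the lipoprotein lipase and also on the fat cell list, went the other way, with 39.5, 44.0, 26.9 and 29.4 CPM in WT and 43.1, 85.2, 50.8 and 47.3 CPM in FL (log2 0.69, adjusted p = 0.999). Plin1 and Lep, which mark fat cells, were at 0 in the liver libraries. Of the 7 fat cell markers tested, 3 were positive and 4 negative. The summed level of all 11 markers on the list was 5265 to 9726 CPM in WT and 4125 to 7167 CPM in FL. Most of it was Car3, which hepatocytes also make.

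Of 22 fatty acid synthesis genes tested, 4 were positive and 18 negative, with a median log2 fold change of -0.14. In mean log2 CPM of the list the groups overlapped. WT 1 (0.357) and WT 2 (0.290) were highest, and WT 3 (-0.236) lay below FL 1, FL 2 and FL 3. Thrsp, a nuclear protein induced with lipogenesis, stood at 660, 497, 312 and 274 CPM in WT and at 292, 189, 234 and 266 CPM in FL. The 2 high WT values came from libraries WT 1 and WT 2, and the log2 fold change moved from -0.83 to -0.36 without the 3 libraries apart. Agpat2, an acyltransferase of triglyceride synthesis, stood at 655 to 774 CPM in WT and at 565 to 619 CPM in FL (log2 -0.27, adjusted p = 0.999). Of 30 genes of PPAR alpha and fatty acid oxidation, 10 were positive and 20 negative, with a median of -0.09, and 4 of 30 lay below WT without overlap, against 1.31% of all genes. Acaa1b, a peroxisomal thiolase, stood at 1254 to 1795 CPM in WT and at 1003.5 to 1230 CPM in FL (log2 -0.42, adjusted p = 0.999). Plin5 and Plin2, lipid droplet coat proteins, had values of -0.30 and -0.24.

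Genes of cholesterol synthesis (24 tested), bile acid synthesis and transport (25), lipoproteins (20), acute phase (23) and complement and coagulation (27) centred on 0. Their medians ran from -0.04 to -0.0015, with 0 called in each. Abcc2, the canalicular export pump for conjugated bilirubin, stood at 162 to 206 CPM in WT and 213 to 247 CPM in FL (log2 0.24, adjusted p = 0.999). Angptl8, an insulin-responsive inhibitor of lipoprotein lipase, stood at 119, 39.5, 206 and 76.8 CPM in WT and 99.1, 37.3, 40.1 and 52.9 CPM in FL. The groups overlapped (log2 -0.94), and the value was -1.71 without the 3 libraries apart.

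**Figure D4:**
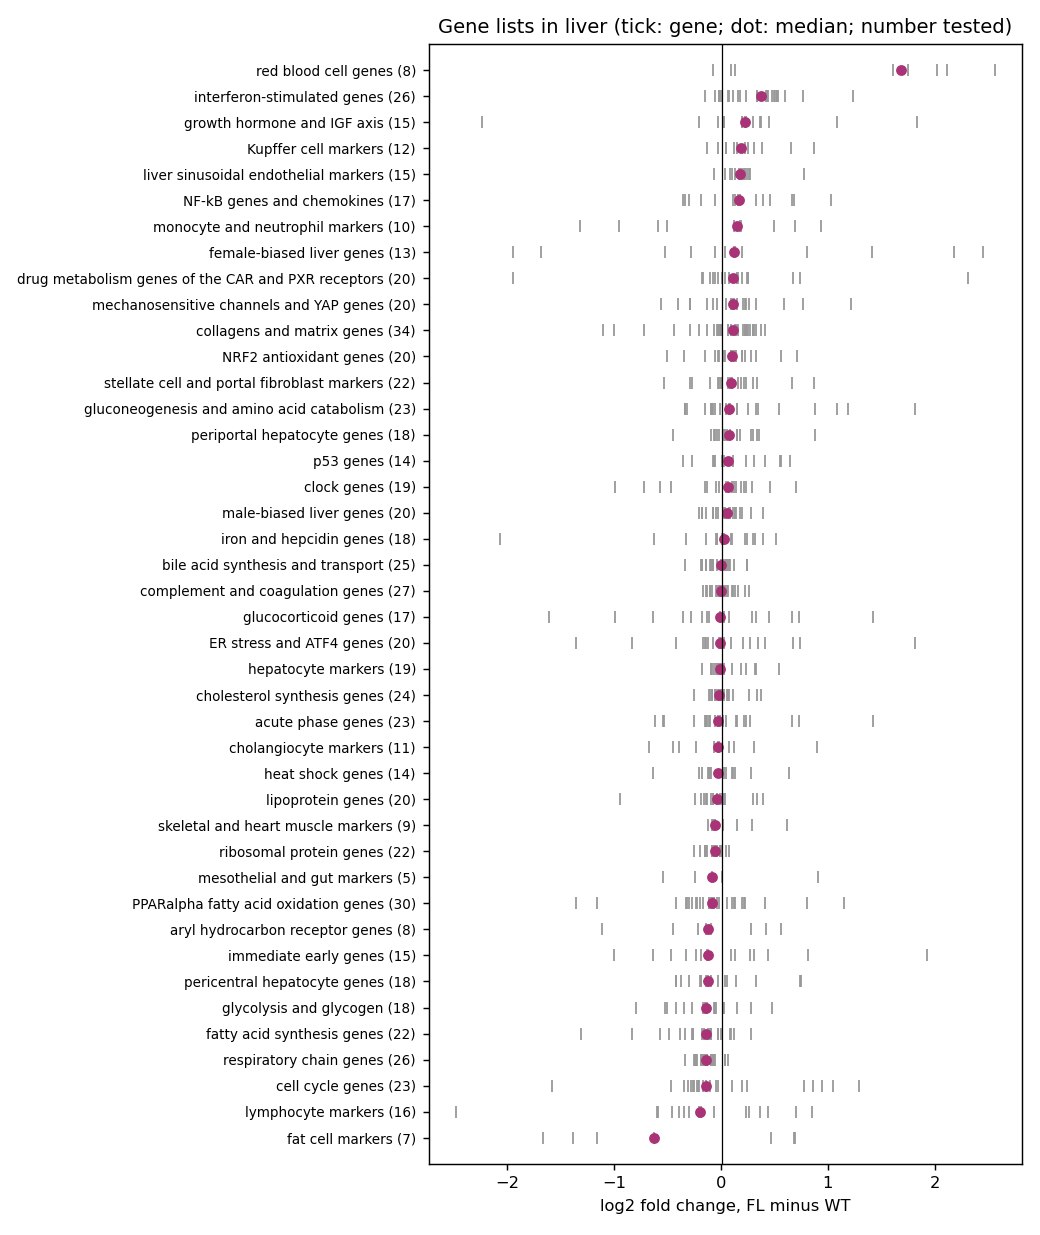
Log2 fold change (horizontal axis) of the genes of each list with at least 5 genes tested, 1 grey tick a gene and a dot at the list's median, with the number of genes tested in brackets and a vertical line at the median of all genes. Most medians lie within 0.2 of 0; red blood cell genes (1.68), interferon-stimulated genes (0.378), the growth hormone and IGF axis (0.22) and fat cell markers (-0.627) lie farther out.

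Cells other than hepatocytes are where the Cre transgene and much of Piezo1 are known to act. Pdgfra (chromosome 5, 75152292 to 75198215) stood at 6.56, 4.41, 5.06 and 3.44 CPM in WT and at 3.89, 7.55, 11.9 and 7.48 CPM in FL. FL 1 lay among the WT libraries, and the log2 fold change was 0.66 (95% interval -0.06 to 1.39; adjusted p = 0.999). Without the 3 libraries apart it was 1.07, at adjusted p = 0.760, and without FL 3 it was 0.38. Of 22 markers of stellate cells and portal fibroblasts tested, 0 were called, 16 were positive and 6 negative, and the median was 0.09. The summed level of all 25 markers on the list was 600 to 753 CPM in WT and 681 to 753 CPM in FL, so the groups overlapped. Dcn, the matrix proteoglycan decorin, and Ecm1, a matrix protein of stellate cells, had values of -0.02 and -0.03.

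Rgs5, a regulator of G-protein signalling known from pericytes and stellate cells (chromosome 1, 169655501 to 169695813), stood at 24.0, 24.7, 17.9 and 27.8 CPM in WT and at 35.3, 38.3, 57.3 and 41.7 CPM in FL. All FL libraries were above all WT libraries (log2 0.87, 95% interval 0.47 to 1.27; adjusted p = 0.756 in edgeR and 0.0222 in DESeq2), and the value was 1.00 without the 3 libraries apart. Myh10, non-muscle myosin IIB (chromosome 11, 68691559 to 68816632), stood at 3.38, 6.08, 6.97 and 5.20 CPM in WT and at 12.3, 11.8, 10.7 and 12.3 CPM in FL (log2 1.12, 95% interval 0.60 to 1.64; adjusted p = 0.756 in edgeR and 0.0128 in DESeq2; 0.92 without the 3 libraries apart). Of 34 collagens and matrix genes tested, 21 were positive and 13 negative, with a median of 0.11, and the groups overlapped for each of the 34. Of 20 genes of mechanosensitive channels and the YAP pathway, 13 were positive and 7 negative. Ccn1, a YAP target, stood at 13.1 to 19.3 CPM in WT and at 11.2 to 17.8 CPM in FL.

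Of 15 sinusoidal endothelial markers tested, 14 had a positive value, 0 were called, and the median was 0.18. The groups overlapped for each of the 15. Lyve1, a hyaluronan receptor of sinusoidal endothelium, stood at 4.67, 5.62, 7.15 and 3.74 CPM in WT and at 8.98, 12.2, 9.81 and 5.38 CPM in FL (log2 0.78, adjusted p = 0.999). Kdr, the VEGF receptor of endothelium, stood at 50.6 to 62.2 CPM in WT and 60.0 to 73.4 CPM in FL, while Dnase1l3 and Ehd3, the most abundant members, had values of -0.07 and 0.04. The summed level of the list was 844 to 899 CPM in WT and 912 to 1028 CPM in FL. Sums did not overlap either for NF-kB genes and chemokines (512 to 546 CPM in WT, 550 to 642 CPM in FL). The same held for p53 genes (233 to 246 CPM in WT, 252 to 266 CPM in FL). These sums were picked out from the 44 gene lists after their values were seen. In mean log2 CPM, relative to the 8 libraries, the endothelial groups were separated only narrowly, with WT 2 at -0.0339 and FL 1 at -0.0242. By that measure the other 2 lists overlapped between groups. For NF-kB genes FL 1 was the lowest of the 8 libraries (-0.338). For p53 genes WT 4 (0.0350) lay above FL 1 (0.0086) and FL 2 (-0.0458).

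Of 12 Kupffer cell markers, 10 were positive, with a median of 0.19. Marco, a scavenger receptor of these liver macrophages, stood at 7.79, 18.3, 15.6 and 32.2 CPM in WT and at 19.8, 21.9, 65.4 and 28.0 CPM in FL. The FL 3 library was the high one, and the summed Kupffer level ran from 866 to 968 CPM in WT and from 872 to 1452 CPM in FL. Of 26 interferon-stimulated genes, 22 were positive, 2 had an unadjusted p under 0.05 and the median was 0.378. None of the 26 was called, and each overlapped between the groups. Oas2, an antiviral oligoadenylate synthetase, stood at 3.02, 1.24, 2.696 and 4.68 CPM in WT and at 2.88, 6.21, 12.3 and 6.01 CPM in FL. FL 1 lay within the WT range there, and over the whole interferon list it had the lowest mean of the 8 libraries. Ly6g, which defines neutrophils, was at 0, and the medians of the monocyte and neutrophil list (10 tested) and of the lymphocyte list (16 tested) were 0.15 and -0.20.

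**Figure D5:**
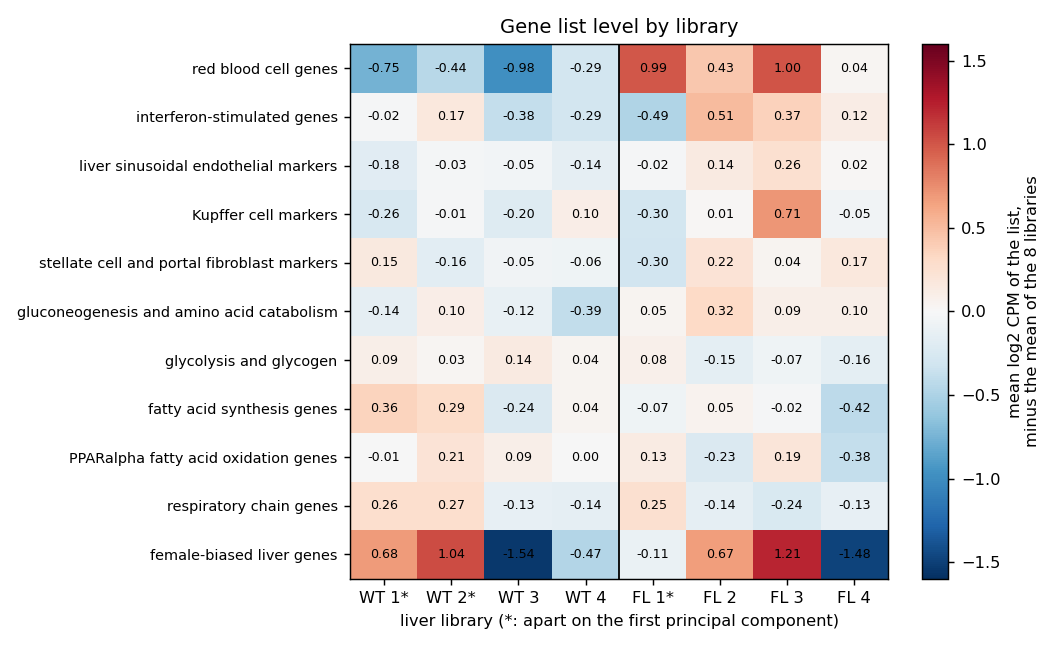
Mean log2 CPM of 11 gene lists in each liver library, as the difference from the mean of the 8 libraries (colour and printed value), with an asterisk on the 3 libraries apart. Red blood cell genes and sinusoidal endothelial markers do not overlap between the groups, the latter narrowly (-0.03 in WT 2, -0.02 in FL 1). Respiratory chain genes follow the 3 libraries (0.25 to 0.27), and female-biased genes scatter from -1.54 to 1.21 in both groups.

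Single genes of signalling pathways had large values with wide scatter. Bcl6, a transcriptional repressor that opposes STAT5 in liver (chromosome 16, 23965052 to 23988852), stood at 6.20, 12.3, 13.0 and 12.1 CPM in WT and at 9.85, 61.7, 41.1 and 42.5 CPM in FL. Only FL 1 lay within the WT range. The log2 fold change was 1.83 (95% interval 0.85 to 2.81, adjusted p = 0.999) and ranged from 1.51 to 2.16 with 1 library left out. It was 2.16 without FL 1, when edgeR called Bcl6 at an adjusted p of 0.0414. Without the 3 libraries apart it was 1.94 (adjusted p = 0.0937). Cish, a feedback inhibitor induced by STAT5 and growth hormone (chromosome 9, 107296026 to 107302784), stood at 25.9, 35.6, 7.06 and 61.0 CPM in WT and at 10.4, 3.54, 7.56 and 5.88 CPM in FL. WT 3 lay among the FL libraries, and the log2 fold change was -2.24 (95% interval -3.43 to -1.05; adjusted p = 0.999), or -2.59 without the 3 libraries apart. Stat5a itself had a value of 0.45. Of 15 genes of the growth hormone and IGF axis tested, 12 were positive and 3 negative, with a median of 0.22.

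Acmsd, which diverts tryptophan breakdown away from NAD synthesis (chromosome 1, 127729413 to 127767978), stood at 36.4, 34.9, 38.4 and 35.0 CPM in WT and at 53.4, 60.6, 50.5 and 79.6 CPM in FL. The WT libraries were close together and all below FL (log2 0.75, 95% interval 0.43 to 1.08; adjusted p = 0.756 in edgeR and 0.0140 in DESeq2), and the value was 0.79 without the 3 libraries apart. Asns, the asparagine synthetase induced by ATF4, stood at 1.76, 2.39, 4.03 and 0.552 CPM in WT and at 2.82, 10.6, 9.66 and 7.78 CPM in FL (log2 1.81, adjusted p = 0.999). The 20 genes of ER stress and ATF4 had a median of -0.01, and Ddit3, the stress factor CHOP, had a value of -0.42. Egr1, an immediate early gene, stood at 2.51 to 4.38 CPM in WT and at 4.18, 8.85, 9.84 and 31.7 CPM in FL (log2 1.93; adjusted p = 0.999 in edgeR and 0.0418 in DESeq2), and the value was 1.09 without FL 4. Dusp1, on the same immediate early list, had a value of -0.64, and the median of the 15 tested was -0.13.

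The remaining genes that DESeq2 called had the lower level in FL. Ces2e, a carboxylesterase, stood at 299 to 355 CPM in WT and at 189 to 262 CPM in FL. Olig1, a helix-loop-helix transcription factor known from the brain, stood at 7.15 to 14.1 CPM in WT and at 2.53 to 4.41 CPM in FL. Slc34a2, a phosphate transporter, stood at 9.93 to 16.7 CPM in WT and at 2.21 to 7.44 CPM in FL. Pyroxd2 stood at 30.3 to 39.3 CPM in WT and at 17.0 to 23.8 CPM in FL, and Lrrc29 at 6.53 to 8.88 and 3.17 to 4.44 CPM. The groups did not overlap for any of these 5, where the share among all genes was 2.44% (1.31% lower in FL). DESeq2 had picked them out on the same 8 libraries, so this is not separate support. Their edgeR adjusted p-values ran from 0.756 to 0.999.

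The other lists held single genes apart from their list. Of 18 pericentral hepatocyte genes 6 were positive and 12 negative (median -0.13), and of 18 periportal genes 12 were positive and 6 negative (median 0.07). Serpina12, a serpin of periportal hepatocytes, stood at 119 to 151 CPM in WT and at 80.7 to 107 CPM in FL. Gadd45b, a stress gene that the receptor CAR induces, was below 1 CPM in every WT library (0.115 to 0.575) and stood at 1.37 to 2.89 CPM in FL (log2 2.31, adjusted p = 0.999). Plk2, a target of p53, stood at 17.8 to 22.4 CPM in WT and at 23.2 to 37.1 CPM in FL, where the list of 14 had a median of 0.07. Hspb1, a small heat shock protein, stood at 9.02 to 14.3 CPM in WT and at 15.3 to 23.7 CPM in FL, where the list of 14 had a median of -0.03. Cdc20, an activator of the anaphase-promoting complex, stood at 1.51 to 4.44 CPM in WT and at 0.701 to 1.45 CPM in FL, while Mki67, a mark of dividing cells on the same list, had a value of 1.30 that was 0.64 without FL 3 and 3.15 without the 3 libraries apart.

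Genes of the bile ducts and of iron control overlapped between genotypes. Of 11 cholangiocyte markers tested, 4 were positive and 7 negative (median -0.03). Spp1, which encodes osteopontin, stood at 65.8, 64.0, 37.5 and 34.4 CPM in WT and at 39.0, 29.4, 43.7 and 35.5 CPM in FL, so WT 1 and WT 2 were the high libraries. Of 18 iron and hepcidin genes, 11 were positive and 7 negative (median 0.02), and 0 were called. Hamp2, a second hepcidin gene, stood at 5.80, 23.6, 0.878 and 1.88 CPM in WT and at 2.32, 4.32, 0.379 and 0.668 CPM in FL, again highest in WT 1 and WT 2. Its log2 fold change of -2.06 was -0.57 without WT 2, -2.83 without FL 2 and 0.37 without the 3 libraries apart.

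Clock and sex-biased genes showed how far single libraries differed. Of 19 clock genes tested, 11 were positive and 8 negative (median 0.06); Usp2, a clock-controlled protease, stood at 6.37 to 9.42 CPM in WT and at 3.26 to 5.94 CPM in FL. Female-biased liver genes varied more between libraries than between groups, with Cyp2c69 at 1.99, 0.663, 0.636 and 0.617 CPM in WT and 3.92, 3.39, 13.7 and 0.301 CPM in FL. The log2 value of Cyp2c69, 2.45, was 1.39 without FL 3, 3.06 without WT 1 and 3.20 without the 3 libraries apart. Mup9, a major urinary protein gene with many near-identical copies, stood at 34.7 to 89.5 CPM in WT and at 9.67, 5.22, 10.2 and 187 CPM in FL, so 1 library, FL 4, set its mean. Without FL 4 edgeR called Mup9 lower in FL (log2 -2.90, adjusted p = 0.0173). Of 26 respiratory chain genes 23 were negative (median -0.14), and of 22 ribosomal protein genes 18 were negative (median -0.06). The respiratory chain list was higher in all 3 libraries apart than in the other 5.

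Genes around Piezo1 were listed because a floxed allele can carry a stretch of the chromosome it was made in. Of 241 genes in the count table that start within 5 Mb of Piezo1, 106 were tested and 0 called. There were 50 positive and 56 negative values, the median was -0.04, and 1 gene each was higher and lower in FL without overlap, the share among all genes being 2.44%. Values of the 106 ran from -0.59 to 1.69. For 1 gene, higher in FL, edgeR's unadjusted p was under 0.05, against 3.61% of all genes. Among these neighbours, Ankrd11 and Spg7, named for the smallest p once predicted genes were left out, had values of 0.30 and -0.58.

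The genotype difference in liver was also set against that in heart and quadriceps of uninjured mice. Since the quadriceps were of another cohort and sequenced less deeply, tissue and cohort cannot be told apart in that contrast. Of 18754 genes tested for liver minus heart, 0 were called (0%; 875 at an unadjusted p under 0.05, 4.67%), and DESeq2 called 8. Of 17739 genes tested for liver minus quadriceps, 0 were called (0%; 589 at an unadjusted p under 0.05, 3.32%), and DESeq2 called 5. By themselves, heart had 0 called of 17064 genes and quadriceps 0 of 11856, with 985 (5.77%) and 771 (6.50%) at an unadjusted p under 0.05. Pparg was at 12.1 ± 3.04 CPM in WT heart and 11.97 ± 1.24 CPM in FL heart (SD, n = 3 each), and the liver difference minus the heart difference was -1.39 (unadjusted p = 0.00223 in edgeR's fit over all genes, adjusted p = 1.00). For Rgs5 it was 0.69 and for Bcl6 1.78, both at adjusted p = 1.00. Each of these genes had been picked for its values in the same liver libraries, so neither these differences nor the unadjusted p is separate support.

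Liver libraries also carried a trace of heart muscle transcripts. Myh6, the myosin heavy chain of heart muscle, stood at 32.5 to 50.6 CPM in the 8 liver libraries, and at 25050 CPM on average in heart. For the 8 muscle genes with at least 500 CPM in heart, the mean liver level was 0.152 to 0.210% of the heart level (median 0.178%). Myh4, Myh2 and Myh1, myosin heavy chains of skeletal muscle, were at 0. Mylpf, at 13760 CPM on average in quadriceps and 0.755 CPM in heart, stood at 0.265 to 0.935 CPM in liver. Tnnt3, also abundant in quadriceps, stood at 0 to 0.265 CPM in liver. In heart, 18 hepatocyte genes stood at a median of 0.109% of their liver level. The cause of this trace was not tested. Of 9 muscle genes tested in liver, 0 were called and the median was -0.05. All 13 muscle genes on the list summed to 98.5 to 135 CPM in WT and 83.1 to 129 CPM in FL.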

How the data were processed

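The authors' deposited values were whole-number counts per gene symbol, used as they stood. STAR 2.7.3a, mm10 and featureCounts are named in the submitters' processing notes; strandedness was not given in the sources used here. Per the labels' protocols, each library came from polyA RNA of homogenised frozen tissue. All 90 count columns were mapped to a sample or group. Coordinates are from GENCODE M21 (mm10), in which 96.2% of the symbols were found. No replicate repeated another.

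The 8 liver libraries were fitted with edgeR 4.0.16 in R 4.3.3 (filterByExpr with a minimum count of 10, TMM, robust quasi-likelihood test, Benjamini-Hochberg adjustment over all genes tested, called under 0.05). Interactions with heart and quadriceps were fitted with both tissues together. The 95% intervals come from the same fit. Fits were tested on simulated counts with known changes, drawn for each gene independently. These lacked the split of the 3 libraries apart, so they cannot show how that split affects the calls.

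Members, 44 gene lists and tests were chosen with earlier results of these data known. Named were Piezo1, called genes (there were none), the 2 members of each list with the smallest p, abundant markers, and genes that an alternative called; predicted genes were left out, and a few named genes are not reported here. Pck1, Igfbp1, Irs2, Ppp1r3c, Gpt2, Stat5a, Hba-a2, Plin2, Cidec and Cyp2b9 were chosen after their values were seen. Alternatives were RLE scaling, DESeq2 1.42.0, no low-count filter, each library left out, the replicate block, thinned counts and a joint fit with heart. The principal component as covariate and a fit without 3 libraries were chosen after seeing the data.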

Additional observations from a re-analysis of the deposited data

Results flagged for a closer look

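Within each genotype, the highest and lowest of the 4 liver libraries were compared with the others for 124 genes, and 15 of 248 groups held a library further from the rest than Dixon's test at the 95% level allows. Chance alone marks about 1 group in 20. Among the FL libraries, FL 4 was lowest for Alb at 46204 CPM and highest for Mup9 at 186.7 CPM. FL 1 was highest for Lect2 at 125.5 CPM, Agpat2 at 619 CPM and Cidec at 1.66 CPM. FL 2 was lowest for Pyroxd2 at 17.0 CPM and highest for Cd8a at 0.497 CPM. FL 3 was highest for Itgax at 0.671 CPM and Gadd45b at 2.89 CPM. Among the WT libraries, WT 1 was lowest for Bcl6 at 6.20 CPM and highest for Cyp2c69 at 1.99 CPM and Cyp2c40 at 3.68 CPM. WT 3 was highest for Cd8a at 1.91 CPM and Pck1 at 1345 CPM, and WT 4 was highest for Pparg at 13.97 CPM.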

How the results depend on the processing

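The count of 0 genes called in liver by edgeR became 15 with DESeq2 and 1 (Hba-a1) without the filter on low counts. With 1 library left out it ranged from 0 to 3: without FL 1 it was 1 (Bcl6), and without FL 4 it was 3 (Hba-a1, Hbb-bs and Mup9). It was 0 with RLE scaling, thinned counts, the joint fit with heart, the principal component as covariate and without the 3 libraries apart. For liver minus heart, 8 genes were called with DESeq2 and 140 without the filter, and 0 to 1 with a library left out (1 without heart WT 2). For liver minus quadriceps these were 5, 69 and 0 to 2 (2 without liver FL 1). Low-count genes enter only without the filter. A fit with sex as covariate was not run, since all 8 livers had Y-linked counts (2537 to 3685) and few of Xist (3 to 23).

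The log2 value of Piezo1 ranged from -0.63 to 0.25 with a library left out, turning positive without WT 4 (0.25) and without FL 1 (0.02). It was lowest, at -0.77, with the principal component as covariate (edgeR, adjusted p = 0.920). Of 103 named genes, markers named only for their abundance not counted, 6 changed sign in some setting. Of those markers, Dcn (0.09), Ecm1 (0.19), Dnase1l3 (0.0029), Ehd3 (-0.07) and Alas2 (0.15), among those the text gives a log2 value for, changed sign without the 3 libraries apart. Without the 3 libraries apart the log2 values were 0.0060 for Spp1, 0.37 for Hamp2, -0.14 for Kdm5d, 0.10 for Mup9 and 0.92 for Cyp2b9. Cela1, which was at -0.02, was 0.066 with the principal component as covariate. With a library left out Cela1 ranged from -0.22 to 0.14 and Mup9 from -2.90 to 0.14. Of the list medians under RLE scaling or with a library left out, 397 moved by less than the spread between replicates and 8 by more. Among these 8, the median turned positive for heat shock genes (0.12 without WT 1), sex chromosome genes (0.11 without WT 1), aryl hydrocarbon receptor genes (0.05 without FL 1) and genes near Piezo1 (0.02 without WT 2). The cause of these moves was not tested.

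Deviations of same-numbered libraries correlated at 0.20, -0.04, 0.01 and 0.11, and those of differently numbered libraries at -0.20 to 0.16. So few pairs cannot decide whether the replicate numbers of the labels pair the samples. With the replicate block 0 genes were called in liver (681 at an unadjusted p under 0.05), 0 in either interaction, and Piezo1 was at -0.30.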
